A study of Mus musculus with 10 samples.

Results

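Primordial germ cells (PGCs) were compared with PGC-like cells induced in culture from parthenogenetic embryonic stem cells (pESC-PGCLCs), with 2 RNA-seq libraries in each group, 4 of the 10 libraries of the series. The members were taken by label, and the comparison covered the 15592 of 36066 genes that reached 1 TPM (read counts scaled to transcript length and library total) in at least 2 of the 4 libraries. The other libraries were embryonic stem cells (ESCs), parthenogenetic ESCs (pESCs) and ESC-PGCLCs, 2 of each, and they entered the fit to estimate the spread between replicates. Every sample was labelled with the mouse strain C57BL6. The pESCs came from parthenogenetic embryos, which hold no paternal genome, of mice with a GFP transgene driven by the actin promoter. For the pESC-PGCLCs, the labels give 2 days in bFGF, activin A and KSR to form epiblast-like cells. These cells were then kept for 4 days with BMP4 (500 ng/ml), SCF (100 ng/ml), EGF (50 ng/ml) and LIF (1000 IU), and PGCLCs were sorted as SSEA1 and CD61 double-positive cells. The PGC labels give neither embryonic age nor sex. The methods of the study describe female PGCs of an earlier and a later stage, purified by their surface antigens, and do not tie these 2 libraries to either stage in the labels used here. Nothing in the labels says that the replicates came from separate litters or cultures, although the study describes its RNA-seq as biologically replicated, so the p-values may measure technical spread alone.

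PGCs are the founders of eggs and sperm. They are set aside from the epiblast under BMP signals, repress the somatic programme, return to a pluripotency-like network, migrate to the gonad and erase DNA methylation, including that of imprinted genes. In the gonad they switch on germ cell genes such as Dazl and Ddx4, and in females Stra8 and the proteins of the meiotic chromosome axis follow. PGCLCs are made to retrace the first of these steps in a dish, and cells without a paternal genome start it with an unusual set of imprints.

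Both groups carried the RNA of germ cells, and both also carried RNA of meiosis and of other cell types. Dppa3 reached at least 3165 TPM and Dazl at least 1084 TPM in all 4 libraries. Summed over Ddx3y, Kdm5d and Uty, genes of the Y chromosome, expression was 0.016 TPM in PGC replicate 1 and 0 in the other 3 libraries. The 7 globin genes of red blood cells together held 2199 and 1988 TPM in PGCs against 3437 and 2901 TPM in pESC-PGCLCs, while pESCs held 0 and 4.00 TPM and ESC-PGCLCs 492 and 562 TPM. The gonadal somatic factors Wt1, Lhx9, Emx2, Gata4 and Nr5a1 summed to 62.9 and 59.8 TPM in PGCs and 35.5 and 31.1 TPM in pESC-PGCLCs. Their sum was 15.6 and 19.2 TPM in ESC-PGCLCs and at most 0.22 TPM in pESCs. These values go against the label of the pESC-PGCLC libraries, which names cells induced in culture for 4 days and no gonadal or blood cells. ESC-PGCLCs, labelled with the same induction, also held RNA of these kinds at lower levels. The pESC-PGCLC libraries held Stra8 at 410 and 359 TPM, and ESC-PGCLCs held it at 192 and 212 TPM. The paternally expressed gene Snrpn was at 94.8 and 105 TPM in pESC-PGCLCs against 6.80 and 9.46 TPM in pESCs. Whether the labels and the column names of the table match the cells sequenced could not be settled from the sources used here. The names PGC and pESC-PGCLC therefore stand for the libraries so labelled in each value and direction that follows, and the source of the globin and gonadal somatic RNA was not tested. In bulk RNA, fewer cells of a type and less RNA per cell cannot be told apart.

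PGC replicate 1 stood apart from the other 3 libraries. Over the genes tested, Pearson's r on log2(TPM + 1), a description across genes, was 0.983 between the pESC-PGCLC replicates and 0.962 between the PGC replicates. PGC replicate 2 reached 0.956 and 0.952 with the pESC-PGCLC libraries, and PGC replicate 1 reached 0.932 and 0.926. A difference of at least 2-fold separated the PGC replicates at 1107 genes (7.1%) and the pESC-PGCLC replicates at 498 genes (3.19%). Depth, recovered from the TPM values and annotated exon lengths, lay between 11140843 and 16704592 reads, and at the median exon length 3 reads corresponded to between 0.147 and 0.216 TPM.

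In pESC-PGCLCs 546 genes rose and 698 genes fell relative to PGCs. A gene was called when limma's moderated test, fitted over all 10 libraries, gave a Benjamini-Hochberg adjusted p below 0.05 and a change of at least 2-fold on the log2(TPM + 1) scale, which understates the change of low genes. These 1244 genes made up 7.98% of those tested, 3.5% called higher and 4.48% called lower, and 6610 genes had an unadjusted p below 0.05. The replicates of the 2 groups did not overlap at 69.4% of all genes tested, so separation alone marked little. The median log2 difference of all genes was -0.25, and centring each library on its median moved it to -0.06. Centred in this way, 875 genes passed as higher and 343 as lower, or 71.8% higher in place of 43.9%, and quantile normalization gave 64.5%, so the balance of higher and lower calls depended on the scaling.

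The calls also depended on single libraries and on the spread borrowed from the other groups. Fitted on the 4 libraries alone, limma called 0 genes at the adjusted threshold although 5915 had an unadjusted p below 0.05, and an exact permutation test of 2 against 2 cannot give a p below 0.333. Leaving out 1 library left 54 calls without pESC-PGCLC replicate 2, 311 without pESC-PGCLC replicate 1, 472 without PGC replicate 1 and 2187 without PGC replicate 2. Among 67 called genes named by a fixed rule, 4 stayed called with any library left out: Jun, Polr2a, Rpl29 and Far1os. Without pESC-PGCLC replicate 2 no other gene of the 67 kept its call. All 67 kept their direction in each of these fits, which was fixed beforehand because the replicates of every called gene did not overlap. In GENCODE M21 on GRCm38, Jun (ENSMUSG00000052684.4) spans chr4:95049034-95052222 and Polr2a (ENSMUSG00000005198.15) spans chr11:69733997-69758637.

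**Figure D1:**
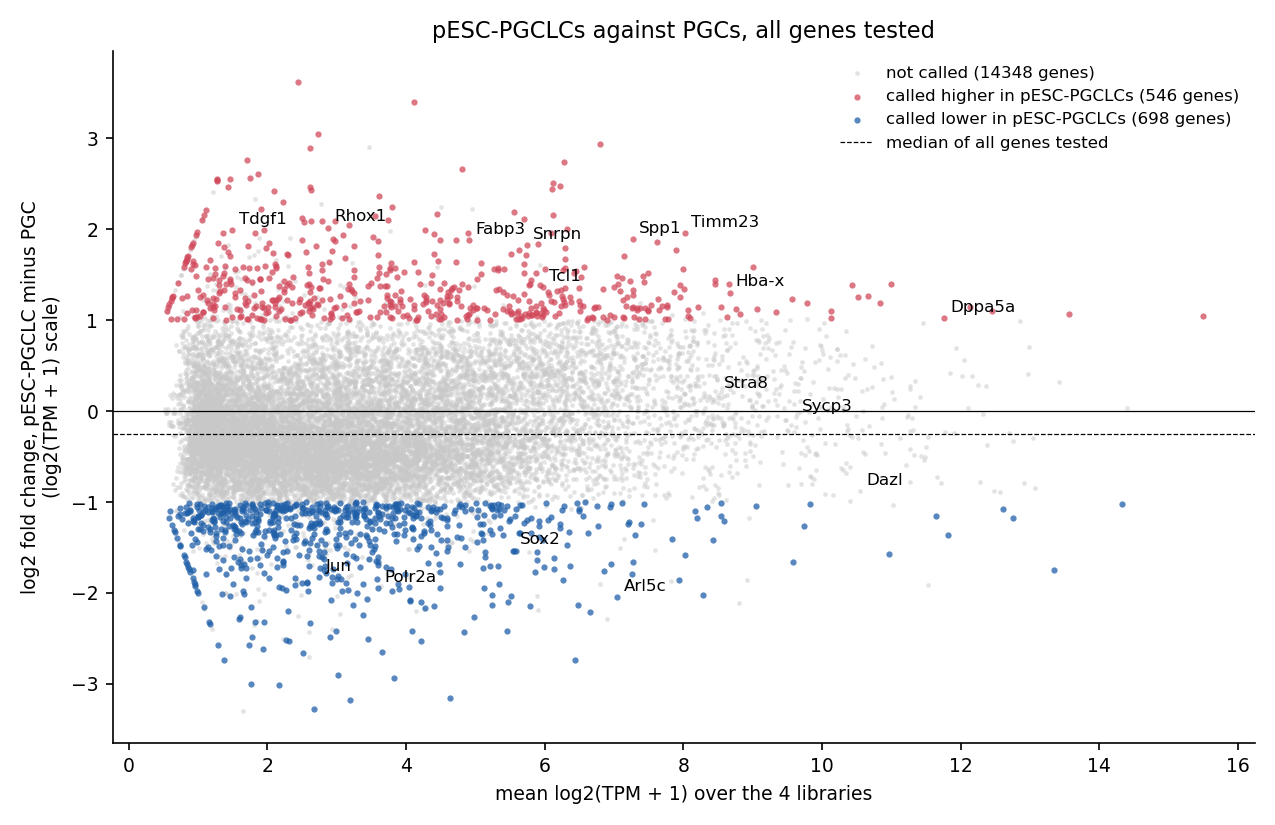
Difference between pESC-PGCLCs and PGCs for the 15592 genes tested. The x axis is the mean log2(TPM + 1) over the 4 libraries and the y axis the log2 difference, pESC-PGCLC minus PGC. The 546 genes called higher are red, the 698 called lower are blue and the rest are grey. The dashed line at -0.25 is the median of all genes, and Dazl, Sycp3 and Stra8 lie among the grey points.

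Called genes were shorter and less often protein-coding than the others. Median annotated exon length was 1126 nt for the genes called higher, 2027 nt for those called lower and 3325 nt for those not called. Protein-coding genes made up 49.3%, 48% and 75.8% of these groups, and pseudogenes 20.5%, 18.8% and 8.1%. Among the 6202 genes of at least 4000 nt, 0.774% were called higher and the median log2 difference was -0.41, whereas among the 2064 genes of 1000 to 2000 nt 7.07% were called higher and the median was 0.13. Gene length therefore moved with the comparison, and its part in the individual differences was not tested.

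Of 23 tested factors that specify and maintain early PGCs, 2 rose, 0 fell and 21 were not called. Over all genes tested, 3.5% were called higher and 4.48% lower. The median log2 difference of these factors was -0.40 beside -0.25 for all genes. Dppa3 (Stella), a germ cell factor that protects DNA methylation in the zygote, stood at 3165 and 4168 TPM in PGCs and at 4938 and 4547 TPM in pESC-PGCLCs, a difference of 0.38 (SE 0.18) that was not called (limma adjusted p = 0.131). The transcription factors that launch the fate showed smaller values in pESC-PGCLCs without passing the call. Prdm1 (Blimp1) was at 13.9 and 12 TPM against 8.71 and 10.4 TPM. Prdm14 was at 19.9 and 21.7 TPM against 15.3 and 13.8 TPM. Tfap2c was at 17.2 and 11.3 TPM against 7.44 and 8.90 TPM. In each of the 3 genes both PGC values lay above both pESC-PGCLC values, but the groups did not overlap at 69.4% of all genes tested. Their log2 differences were -0.40, -0.48 and -0.71, beside the median of -0.25 for all genes. The RNA-binding protein gene Nanos3, needed for PGC survival, pointed the other way at 25.8 and 50.6 TPM against 64.1 and 71.9 TPM, and was not called either (a difference of 0.89).

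The 2 early genes that rose were Tcl1 and Bmp8b. Tcl1, a co-activator of the kinase Akt, was at 34.6 and 41.8 TPM in PGCs and 102 and 97.5 TPM in pESC-PGCLCs, a log2 rise of 1.37 (SE 0.19, limma adjusted p = 0.00695). The pESC-PGCLC level was close to that of pESCs, at 92.9 and 126 TPM, and ESC-PGCLCs held 11.2 and 13.5 TPM. Bmp8b, a ligand of the BMP family, was at 1.74 and 1.85 TPM against 6.39 and 6.16 TPM, a rise of 1.38 (SE 0.19, limma adjusted p = 0.00647). On the TPM + 1 scale Tcl1 stood 2.58-fold and Bmp8b 2.60-fold above PGCs, with no overlap of the replicates. The Tcl1 call was lost without either pESC-PGCLC library (1.23 to 1.5 over the 4 fits), and the Bmp8b call without pESC-PGCLC replicate 2 (1.35 to 1.41). The genes behind the surface markers used to gate PGCLCs had lower values in pESC-PGCLCs: Itgb3, which encodes CD61, was at 8.53 and 8.07 TPM against 4.18 and 3.91 TPM, and Fut4, an enzyme that makes the SSEA1 sugar, at 11.2 and 10.1 TPM against 5.10 and 5.04 TPM. Neither reached the 2-fold minimum, at -0.88 and -0.94 on the log2 scale.

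Of 39 gonadal germ cell genes with values, 5 were below the filter, and of 34 tested members 1 rose and 1 fell. Over all genes tested, 3.5% were called higher and 4.48% lower. The median log2 difference of the list was -0.03. Levels ranged widely, from Tdrd1, a piRNA pathway gene at 8.53 and 6.55 TPM against 5.24 and 5.57 TPM, to Dazl. Dazl, the RNA-binding protein that licenses germ cells for gamete development, was at 1958 and 2095 TPM in PGCs and 1084 and 1115 TPM in pESC-PGCLCs, a difference of -0.88 (SE 0.19) with a limma adjusted p of 0.0208 that stayed short of 2-fold. Dazl RNA was thus lower in both pESC-PGCLC libraries than in either PGC library. Ddx4 (Vasa), a germ cell RNA helicase, was at 189 and 303 TPM against 186 and 191 TPM, and the groups overlapped. Mael, a factor of the piRNA pathway that silences transposons, was at 203 and 195 TPM against 149 and 140 TPM, and was not called. Tex13b, an X-linked gene of germ cells, fell from 257 and 197 TPM to 102 and 88.0 TPM, by 1.24 on the log2 scale (SE 0.20, limma adjusted p = 0.0103). Pla2g1b, a secreted phospholipase, rose from 13.9 and 13.5 TPM to 31.8 and 35.0 TPM, by 1.23 (SE 0.19, limma adjusted p = 0.00900). Pla2g1b is also an abundant stem cell gene, at 1111 and 1060 TPM in ESCs. Without 1 library Tex13b ranged from -1.43 to -1.05 and lost its call in 3 of the 4 fits, keeping it only without PGC replicate 2, and Pla2g1b ranged from 1.16 to 1.3 and lost its call without either pESC-PGCLC library.

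No meiotic gene passed the call: of 31 tested members 0 rose and 0 fell by limma, against 3.5% and 4.48% of all genes. The median log2 difference was -0.11, and 13 members were above 0. Stra8, the gene that starts meiosis in response to retinoic acid, was at 333 and 343 TPM in PGCs and 410 and 359 TPM in pESC-PGCLCs. Sycp3, a component of the chromosome axis, was at 666 and 973 TPM against 867 and 685 TPM. Syce2, which builds the central element of the synaptonemal complex, was at 223 and 433 TPM against 573 and 647 TPM, the highest difference in the list at 0.97 (SE 0.27). Ythdc2, a helicase that promotes meiotic entry, was at 37.4 and 35.5 TPM against 19.2 and 17.1 TPM, the lowest difference at -0.97 (SE 0.22). Under median centring 4 members were called higher, 1 under quantile normalization, and 1 was called lower without PGC replicate 1. Voom on recovered reads also called 0 members in either direction. Oocyte genes gave 0 calls among 9 tested by limma and 1 higher with voom.

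**Figure D2:**
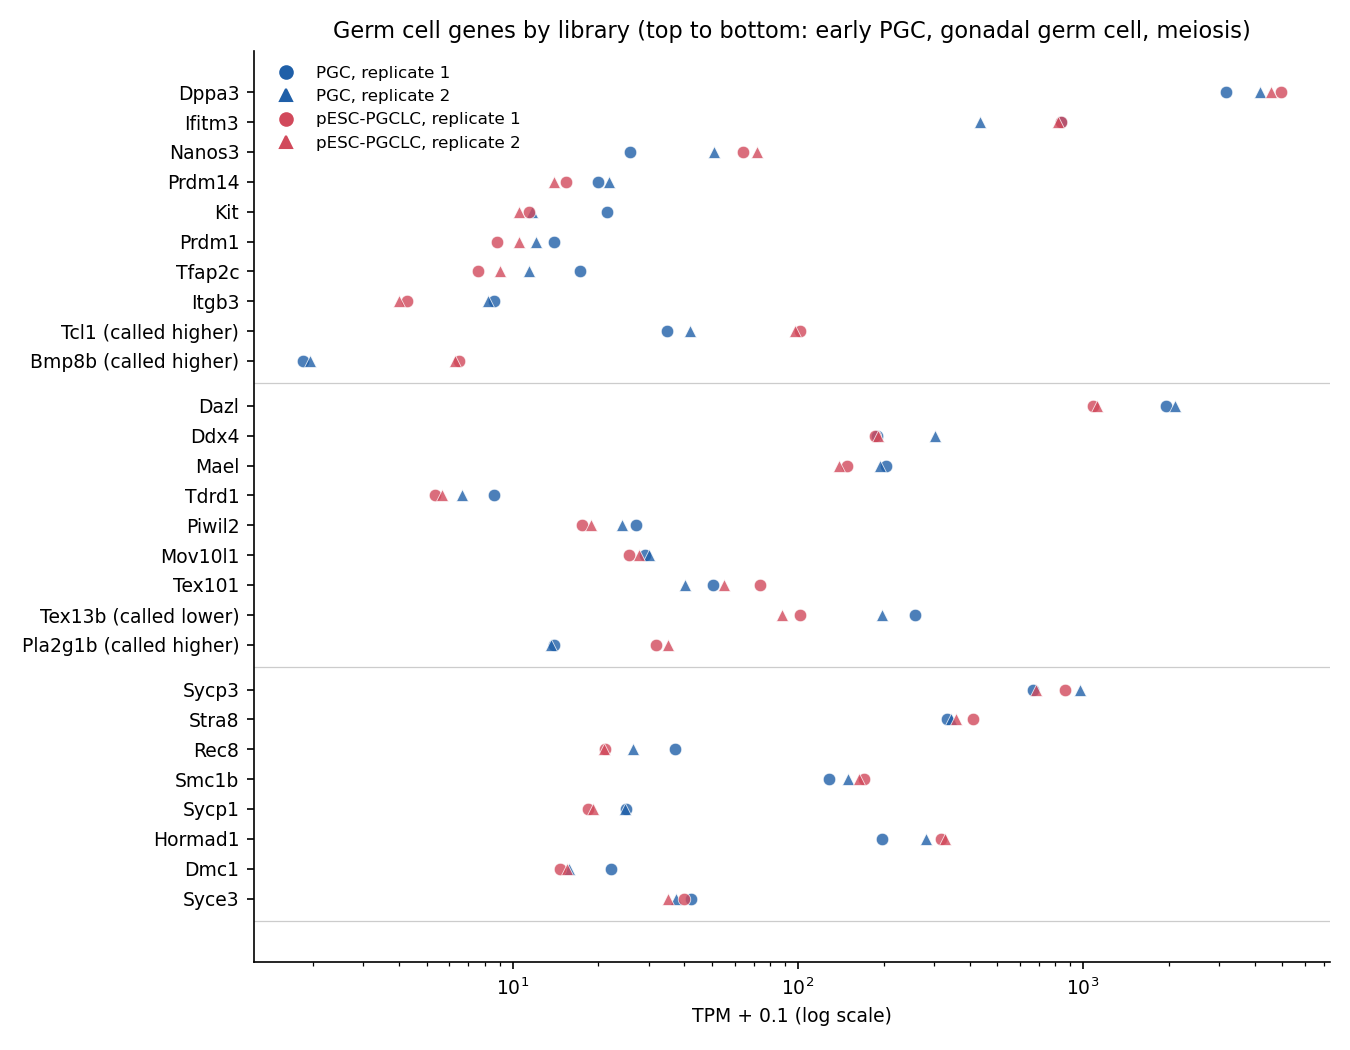
TPM + 0.1 on a log axis for germ cell genes, with 1 point per library (PGCs blue, pESC-PGCLCs red, circles replicate 1, triangles replicate 2). Early PGC factors are at the top, gonadal germ cell genes in the middle and meiosis genes at the bottom. Red and blue points lie close together for most genes, and Tcl1, Bmp8b, Tex13b and Pla2g1b are marked as called.

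Part of the promoters of these germ cell genes hold the E-box CACGTG, which reads the same on both strands. In RefSeq promoters of the build GRCm38.p6, searched over the 250 bases before each start site, it stood in 9 of 31 gonadal germ cell genes with a promoter in the table (29%) and in 6 of 26 meiosis genes (23.1%), against 9.93% of the 9609 genes tested that have one and 6.86% of 27025 genes in all. It was in 0 of 15 early PGC factors. Stretches around the element are shown for 4 germ cell genes, none of them called, with the element in capitals, 5′ to 3′ on the strand of the gene. They lie at chr1:166238932-166238994 for Mael (minus strand), chr10:88459493-88459579 for Sycp3 (plus strand), chr13:112652311-112652369 for Ddx4 (minus strand) and chrX:134476504-134476569 for Taf7l (minus strand).
Mael: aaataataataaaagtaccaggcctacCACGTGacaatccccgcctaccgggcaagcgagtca
Sycp3: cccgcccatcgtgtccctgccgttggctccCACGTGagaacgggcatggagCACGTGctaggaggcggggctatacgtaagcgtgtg
Ddx4: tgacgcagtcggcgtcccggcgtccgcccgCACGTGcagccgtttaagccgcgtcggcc
Taf7l: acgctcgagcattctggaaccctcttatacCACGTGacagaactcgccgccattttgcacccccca
The Sycp3 promoter held 2 copies and the other 3 held 1 each. A match describes the letters alone and says nothing of a bound factor. Taf7l, a germ cell subunit of the general transcription machinery shown for its element, was at 47.8 and 58.7 TPM in PGCs and 31.6 and 37.2 TPM in pESC-PGCLCs, and was not called.

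Of the 25 pluripotency genes tested, 2 rose and 1 fell, against 3.5% of all genes called higher and 4.48% called lower. The median log2 difference was -0.22 beside -0.25 for all genes. Sox2 (chr3:34650405-34652461), a core factor of the network, fell from 83.4 and 75.1 TPM in PGCs to 23.9 and 29.7 TPM in pESC-PGCLCs, by 1.54 on the log2 scale (SE 0.27, limma adjusted p = 0.0126). The pESC-PGCLC level was below that of pESCs, at 35.9 and 62.4 TPM, and of ESC-PGCLCs, at 97.3 and 111 TPM. Its partner Nanog was at 43.8 and 31.4 TPM against 28.8 and 35.1 TPM with overlapping groups. Pou5f1 (Oct4), the other core factor, was listed at only 3.14 and 1.63 TPM in PGCs and 2.98 and 2.88 TPM in pESC-PGCLCs. Among these 3 core factors Sox2 alone was called. Without 1 library its difference lay between -1.68 and -1.39, and the call was lost in each fit except that without PGC replicate 2.

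The 2 pluripotency genes that rose were Dppa5a and Tdgf1. Dppa5a, which encodes an RNA-binding protein of pluripotent cells, was at 2207 and 2708 TPM against 4376 and 5627 TPM, a rise of 1.02 (SE 0.18, limma adjusted p = 0.0133). It shared 38.6% of its 50-base windows with other annotated genes, so its counts are uncertain. Tdgf1 (Cripto), the co-receptor of Nodal, was at 0.538 and 0.296 TPM in PGCs and 2.96 and 6.97 TPM in pESC-PGCLCs, a rise of 1.99 (SE 0.33, limma adjusted p = 0.0115). Tdgf1 passed the filter of 1 TPM only through the pESC-PGCLC libraries, so it could be tested only as a rise. Lefty2, a secreted inhibitor of Nodal, was at 1.14 and 1.02 TPM against 2.74 and 5.45 TPM, a rise of 1.24 (SE 0.26, limma adjusted p = 0.0190). For both Nodal pathway genes pESC-PGCLC replicate 2 held about 2 times the level of replicate 1, and both were high in pESCs, at 426 and 600 TPM for Tdgf1 and 30.5 and 41.8 TPM for Lefty2. Tdgf1 and Lefty2 also made up the 2 calls among 4 tested male germ cell genes. Without pESC-PGCLC replicate 2 all 3 of these genes lost their calls, at 0.84 or more for Dppa5a, 1.49 or more for Tdgf1 and 0.85 or more for Lefty2 over the 4 fits, and Dppa5a and Lefty2 also lost theirs without PGC replicate 1.

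A set of stem cell genes was then taken by a rule that used none of the 4 libraries compared: at least 100 TPM in every ESC and pESC library and at least 20-fold above both ESC-PGCLC libraries. The rule was chosen after the values had been seen. It gave 51 genes, 48 of them tested, of which 22 rose (background 3.5%) and 0 fell, with a median log2 difference of 0.97. The median level was 13.1 and 14.7 TPM in PGCs, 21.5 and 31.1 TPM in pESC-PGCLCs, 6.55 and 6.43 TPM in ESC-PGCLCs and 426 and 381 TPM in pESCs. Some members overlap each other in the genome, such as Gm42793 and Spp1, which both rose. Gm10252 and Gm47428, which rose, overlap Ftl1 and Ftl1-ps1, which were not called. The 51 are therefore not 51 independent genes. Both pESC-PGCLC libraries lay above both PGC libraries at 45 of the 51 genes, and the reverse held at 1. Over all genes tested, the groups did not overlap in either direction at 69.4%. pESC-PGCLC replicate 2 exceeded replicate 1 at 41 of the 51. Of the 48 tested members 26 were not called, and the medians of both groups lay far below those of stem cells.

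Members of the set with a known role included secreted, metabolic and ubiquitin-like proteins, chosen after their values were seen apart from Spp1 and Fabp3. Spp1 (osteopontin), a secreted matrix protein, was at 56.4 and 111 TPM in PGCs and 218 and 403 TPM in pESC-PGCLCs, a rise of 1.89 (SE 0.37, limma adjusted p = 0.0156). Fabp3, a fatty acid-binding protein, was at 13.1 and 16.3 TPM against 43.0 and 74.3 TPM, a rise of 1.88 (SE 0.25, limma adjusted p = 0.00641). Ubd, a ubiquitin-like modifier, was listed at 0 in both PGC libraries and at 2.65 and 4.91 TPM in pESC-PGCLCs. Ubd was among the 6 risers below 1 TPM in both PGC libraries, which could be tested only as rises. Apela, a peptide hormone of pluripotent cells, was at 0.156 and 0 TPM against 1.75 and 3.18 TPM. Apoa2, an apolipoprotein, was listed at 0 in both PGC libraries and at 1.75 and 4.35 TPM in pESC-PGCLCs. The number of members that rose was 2 without pESC-PGCLC replicate 2, 14 without pESC-PGCLC replicate 1, 18 without PGC replicate 1 and 26 under median centring.

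**Figure D3:**
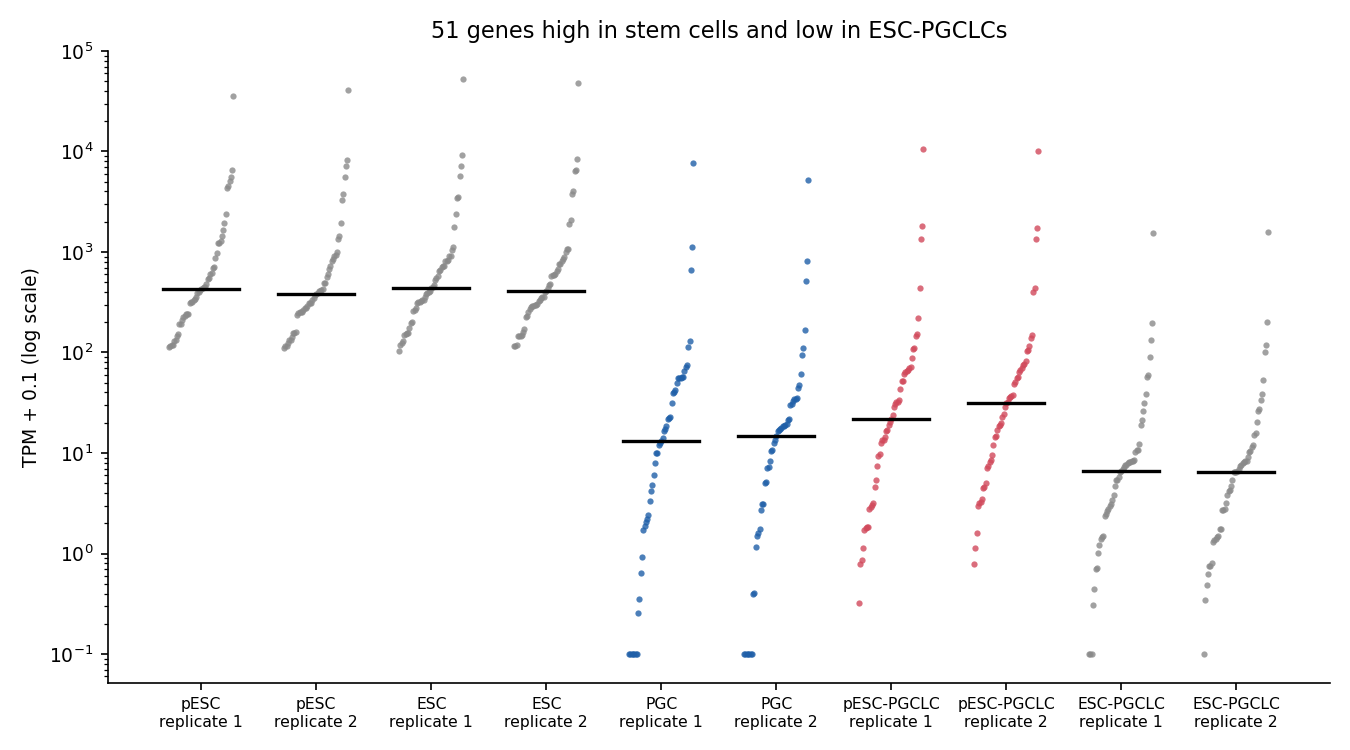
TPM + 0.1 on a log axis for the 51 stem cell genes in each of the 10 libraries, 1 point per gene sorted by level, with the median as a black bar. Medians are near 400 TPM in stem cells, 13.1 and 14.7 TPM in PGCs (blue), 21.5 and 31.1 TPM in pESC-PGCLCs (red) and about 6.5 TPM in ESC-PGCLCs.

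Among targets of the BMP signal that induces PGCs, 3 of 14 tested members fell, 0 rose and 11 were not called, against 4.48% of all genes called lower. All 14 had a log2 difference below 0, with a median of -0.62 beside -0.25 for all genes. Gonadal somatic markers moved the same way, with a median of -0.61 and a summed level of 196 and 157 TPM in PGCs against 99.2 and 92.2 TPM in pESC-PGCLCs, and their part in the BMP target values was not tested. Msx1, a homeobox factor, fell from 30.1 and 23.9 TPM to 11.8 and 11 TPM, by 1.17 (SE 0.17, limma adjusted p = 0.00712). Gata2, a zinc-finger factor of mesoderm and blood, fell from 28.1 and 22.9 TPM to 10.1 and 9.61 TPM, by 1.28 (SE 0.17, limma adjusted p = 0.00641). In both genes the lowest PGC value was more than 2 times the highest pESC-PGCLC value. The third, the T-box gene Tbx4, was uneven between the PGC libraries at 8.16 and 1.63 TPM, against 0.483 and 0.344 TPM. Tbx4 passed the filter of 1 TPM only through the PGC libraries, so it could be tested only as a fall. The classical direct targets did not pass the call. Id1 was at 141 and 86.8 TPM against 80.4 and 79.9 TPM, and Id3 at 255 and 168 TPM against 218 and 176 TPM. Under median centring 2 members were called lower, and Msx1 no longer was. Without pESC-PGCLC replicate 2 none of the 3 genes kept its call, with differences between -1.33 and -1.01 for Msx1, -1.43 and -1.14 for Gata2 and -2.70 and -0.90 for Tbx4 over the 4 fits.

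Other signalling genes showed isolated changes, beside 3.5% of all genes called higher and 4.48% called lower. In the retinoic acid list 1 of 10 tested members fell: Aldh1a3, an enzyme that makes retinoic acid, from 11.9 and 10.2 TPM to 3.51 and 2.44 TPM, by 1.61 (SE 0.23, limma adjusted p = 0.00706). Among 21 migration and niche genes 1 rose and 2 fell, with a median of -0.63. Fgfr1, a receptor for fibroblast growth factors, fell from 9.41 and 7.61 TPM to 2.76 and 3.04 TPM, by 1.28 (SE 0.19, limma adjusted p = 0.00753). Axin2, a feedback target of Wnt, was at 16.5 and 9.27 TPM against 5.63 and 4.36 TPM, and its call was lost under median centring and without any of PGC replicate 1 or the pESC-PGCLC replicates (-1.55 to -0.78). Spry2, an inhibitor of growth factor receptors, was at 65.1 and 77.0 TPM against 106 and 201 TPM, a rise of 1.04 called in only 1 of the 4 leave-one-out fits (0.58 to 1.5). Sp5, a Wnt-induced factor of the primitive streak, fell from 23.9 and 14.7 TPM to 6.43 and 5.67 TPM, by 1.49 (SE 0.30, limma adjusted p = 0.0169). It was, with Lefty2, 1 of 2 calls among 15 tested epiblast and primitive streak genes. Aldh1a3 lost its call without pESC-PGCLC replicate 2, Fgfr1 without either pESC-PGCLC library, and Sp5 in each fit except that without PGC replicate 2, with lowest and highest differences of -1.80 and -1.41, -1.42 and -1.14, and -1.82 and -1.15. Of 5 tested Hox genes limma called 0 and voom called 1 lower.

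Stress and immediate early genes, which answer to growth factors and to handling of cells, held the largest number of falls among the 32 lists: 5 of 29 tested members fell and 0 rose, against 4.48% of all genes. Jun, a subunit of the factor AP-1, fell from 11.5 and 11.8 TPM in PGCs to 2.65 and 2.50 TPM in pESC-PGCLCs, by 1.82 (SE 0.16, limma adjusted p = 0.00235). Jun was at 4.09 and 4.16 TPM in ESC-PGCLCs and at most 0.211 TPM in stem cells. Its call held whichever library was left out. Zfp36, which destabilises short-lived mRNAs, was at 9.85 and 3.83 TPM against 1.59 and 2.11 TPM. Egr1, an early growth response factor, was at 20.6 and 13.8 TPM against 6.84 and 7.63 TPM. Egr2, of the same family, was at 2.40 and 3.13 TPM against 0.795 and 0.938 TPM. Atf4, the master factor of the integrated stress response, was at 45.2 and 30.2 TPM against 17.7 and 16.0 TPM. The replicates did not overlap at 21 of the 29 tested members, near the share over all genes given above. Under median centring 2 members were called lower and 1 higher, under quantile normalization 3 and 1, and without PGC replicate 1 the list held 2 lower calls. Zfp36, Egr1 and Atf4 kept their calls only without PGC replicate 2, with ranges of -1.93 to -0.77, -1.39 to -0.85 and -1.37 to -0.81. Egr2 was named after its values were seen. It passed the filter of 1 TPM only through the PGC libraries, so it could be tested only as a fall.

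The promoters of Egr2 and Zfp36 held a CArG box, the element of serum response factor, written CC, 6 bases of A or T, then GG, and searched on both strands. It was in 2 of the 24 tested members of the list with a RefSeq promoter (8.33%), both of them among the 4 called, and in 1.52% of the genes tested. Of the other elements searched, TGACGTCA and TGANTCA were in 0 of the 4 called members. They were in 8.33% and 12.5% of the tested members, against 3.02% and 4.77% of the genes tested. CACGTG was in 1 of the 4 called members, Egr2, and in 12.5% of the tested members, against 9.93% of the genes tested. The stretches are printed because these early genes fell, with the box in capitals and on the strand of the gene. Both Egr2 stretches, from 2 annotated starts, lie on the plus strand at chr10:67537464-67537533 and chr10:67537767-67537836, and that of Zfp36 on the minus strand at chr7:28379247-28379316 (GRCm38.p6).
Egr2, first start: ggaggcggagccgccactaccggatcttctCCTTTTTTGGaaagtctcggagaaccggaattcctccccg
Egr2, second start: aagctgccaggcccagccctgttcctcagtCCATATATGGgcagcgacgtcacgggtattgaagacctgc
Zfp36: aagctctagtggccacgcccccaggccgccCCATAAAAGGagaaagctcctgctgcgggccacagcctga
The boxes began 72 bases before the start in both Egr2 promoters and 58 bases before it in Zfp36.

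Imprinted genes, expressed from 1 parental copy in most tissues, differed at a few loci. Of 23 paternally expressed genes tested, 2 rose and 0 fell, against 3.5% of all genes called higher and 4.48% called lower. Snrpn, which encodes a spliceosome protein, rose from 24.3 and 31.0 TPM in PGCs to 94.8 and 105 TPM in pESC-PGCLCs, by 1.82 (SE 0.22, limma adjusted p = 0.00521). The gene (ENSMUSG00000102252.5) spans chr7:59982495-60140219 on GRCm38. In pESCs, the labelled source of these cells, it was at 6.80 and 9.46 TPM, in ESCs at 108 and 88.4 TPM, and in ESC-PGCLCs at 14.1 and 10.9 TPM. The libraries labelled pESC-PGCLC therefore held Snrpn at the level of ESCs and far above that of pESCs, with 21.7% of the gene's 50-base windows shared with other annotated genes. Snurf, the upstream reading frame of the same transcript, rose by 2.75, but all of its 50-base windows occur in other annotated genes and its split from Snrpn is uncertain. Without 1 library Snrpn ranged from 1.65 to 1.99 and lost its call only without pESC-PGCLC replicate 2, and Snurf from 1.92 to 3.57 with its call kept only without PGC replicate 2.

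The other paternally expressed genes that anchor the list were not called. Mest, a hydrolase gene of mesoderm, was at 51.5 and 47.1 TPM against 28.8 and 29.0 TPM. Peg3, a zinc-finger gene, was at 55.2 and 53.9 TPM against 41.3 and 44.6 TPM. Igf2, the fetal growth factor, was at 9.51 and 8.88 TPM against 9.13 and 10.1 TPM, with overlapping groups. Of 24 maternally expressed genes 2 fell and 0 rose, against 4.48% of all genes called lower and 3.5% called higher. Their median was -0.45. H19, a long noncoding RNA gene at chr7:142575529-142578143, fell from 120 and 84.0 TPM to 36.3 and 31.1 TPM, by 1.55 (SE 0.21, limma adjusted p = 0.00674). H19 was at most 0.235 TPM in stem cells and at 5.90 and 7.59 TPM in ESC-PGCLCs, so both groups compared stood well above those. Atp10a, a lipid flippase, fell from 16.4 and 10.7 TPM to 5.84 and 4.47 TPM, by 1.22 (SE 0.22, limma adjusted p = 0.0128). Phlda2, a placental growth regulator on the same list, was at 428 and 466 TPM against 774 and 729 TPM and was not called. H19 lost its call without pESC-PGCLC replicate 2 (-1.81 to -1.3), and Atp10a in each fit except that without PGC replicate 2 (-1.5 to -0.93).

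**Figure D4:**
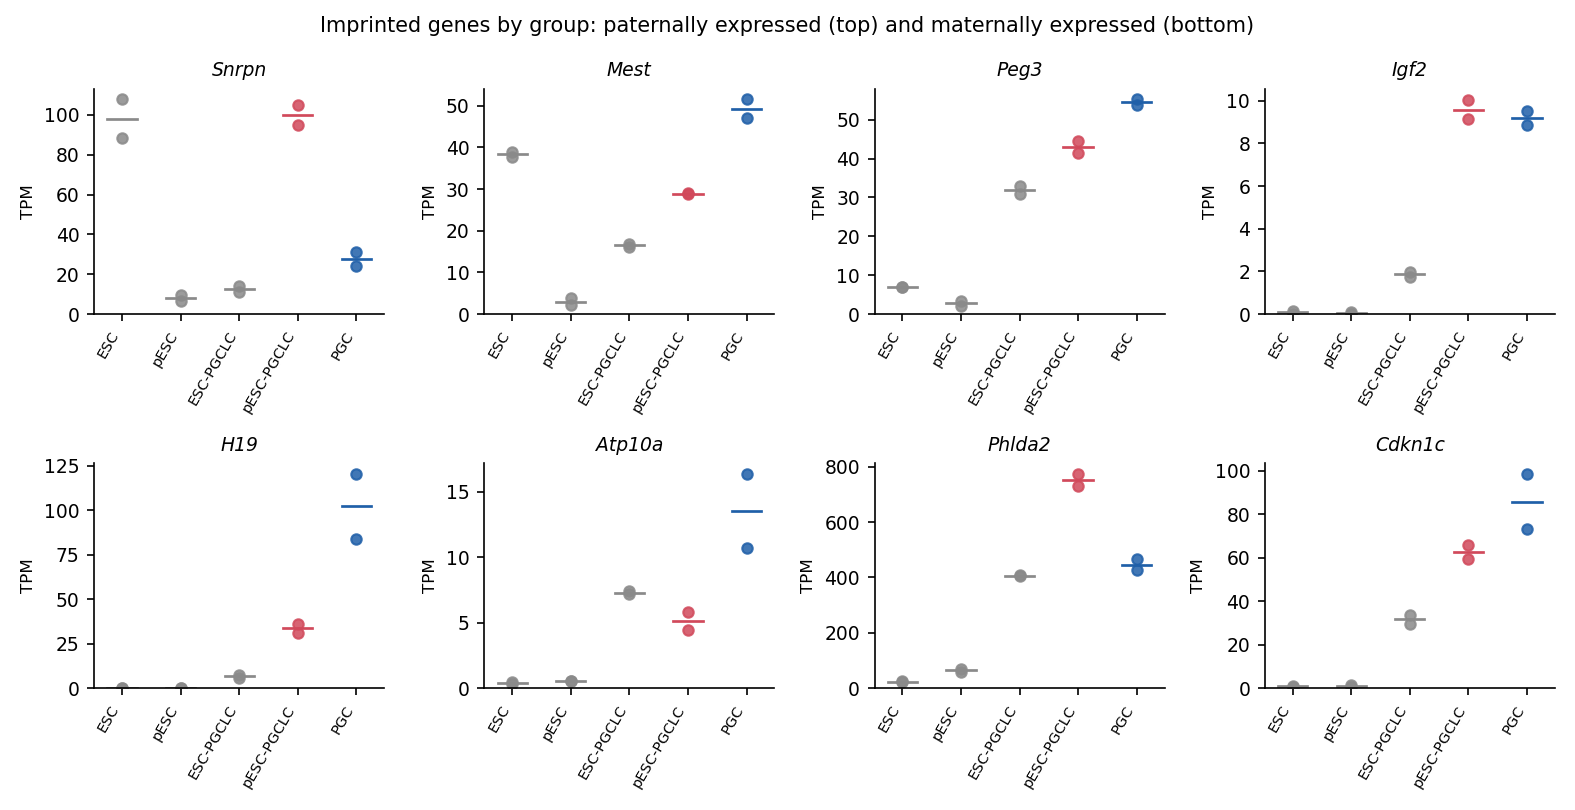
TPM of 8 imprinted genes in the 5 groups, with 1 point per library and a bar at the mean, paternally expressed genes above and maternally expressed genes below. Snrpn is at 94.8 and 105 TPM in pESC-PGCLCs (red) against 24.3 and 31.0 TPM in PGCs (blue) and 6.80 and 9.46 TPM in pESCs, and H19 is highest in PGCs.

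Each list of chromatin regulators held 1 fall and 0 rises, against 4.48% of all genes called lower and 3.5% called higher. Of 12 tested genes of DNA methylation and demethylation 1 fell: Uhrf1, which brings the maintenance methyltransferase to replicating DNA, from 17.1 and 12 TPM to 6.51 and 6.19 TPM, by 1.06 (SE 0.25, limma adjusted p = 0.0247). Dnmt1, that methyltransferase, was at 43.0 and 27.3 TPM against 18.4 and 20.4 TPM, and Tet1, a demethylating enzyme, at 13.9 and 13.0 TPM against 9.31 and 11 TPM. Neither was called. Among 19 repressors of germline genes 1 fell: Wdr5, a subunit of histone methyltransferase complexes, from 59.9 and 47.8 TPM to 26.0 and 24.0 TPM, by 1.07 (SE 0.18, limma adjusted p = 0.0112). Uhrf1 and Wdr5 were not called under median centring, and each was called in only 1 leave-one-out fit, that without PGC replicate 2 (-1.3 to -0.82 and -1.23 to -0.91).

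Metabolic and cell state genes were mixed. Cholesterol synthesis genes moved both ways, with 2 rises and 3 falls among 23, against 3.5% and 4.48% of all genes. Idi1, an isomerase of the pathway, rose from 7.29 and 8.24 TPM to 22.1 and 24.8 TPM, by 1.48 (SE 0.16, limma adjusted p = 0.00448), and Fdps, the next synthase, from 59.1 and 78.5 TPM to 143 and 136 TPM, by 1.02. Mvd, the enzyme before them, fell by 1.35, and Srebf2, the regulator of the pathway, fell by 1.27. Idi1 and Fdps shared 17.7% and 26.2% of their windows with other genes. Idi1 lost its call only without pESC-PGCLC replicate 2 (1.40 to 1.56), Mvd without either pESC-PGCLC library (-1.57 to -1.14), and Fdps and Srebf2 in each fit except that without PGC replicate 2 (0.82 to 1.22 and -1.59 to -0.94). Among 18 genes of p53 signalling and apoptosis 3 rose and 1 fell, against 3.5% and 4.48% of all genes, and 14 were not called. The median log2 difference was -0.13 beside -0.25 for all genes, and 11 members were below 0. The risers were the cell death genes Bax at 33.9 and 26.2 against 62.2 and 68.5 TPM, Pmaip1 (Noxa) at 1.42 and 1.59 against 3.24 and 6.71 TPM, and Bid at 13.7 and 15.8 against 28.4 and 35.8 TPM. Bcl2l1, whose main product protects from cell death, fell from 7.21 and 4.78 TPM to 2.13 and 1.6 TPM. Each of these 4 lost its call in 3 of 4 leave-one-out fits, with ranges of 0.92 to 1.28 for Bax, 0.76 to 1.62 for Pmaip1, 0.90 to 1.23 for Bid and -1.53 to -1.02 for Bcl2l1. Of 34 cell cycle genes 1 fell, the mitotic kinase Plk1 (44.5 and 21.1 against 14.4 and 13.8 TPM), and of 32 adhesion genes 1 fell, the cadherin Cdh1 (27.0 and 17.9 against 10.8 and 8.97 TPM); neither was called under median centring or in 3 of the leave-one-out fits (-1.59 to -0.55 and -1.37 to -0.80). limma called 0 of 19 glycolysis and 0 of 15 hypoxia genes, with medians of -0.23 and -0.25, and voom called 0 and 2. Of 17 genes in the table that mark 2-cell-like cells, 0 reached the filter.

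Beyond these lists the largest differences fell on genes that share sequence with others. The 12 largest rises and falls, among genes with a conventional symbol whose higher group averaged 10 TPM or more, were taken by a fixed rule. AY036118, a noncoding transcript at 46.7 and 33.2 TPM against 286 and 332 TPM, rose by 2.94 (SE 0.39, limma adjusted p = 0.00641), and all of its windows recur in the ribosomal RNA gene CT010467.1, which rose by 2.15. Timm23, the channel of the inner mitochondrial membrane, rose from 95.9 and 178 TPM to 513 and 510 TPM, by 1.96, with 57.5% of windows shared. Rpl29, a ribosomal protein gene with many processed copies, rose from 5.99 and 4.92 TPM to 18.9 and 37.1 TPM, by 2.10. Of the 12 largest falls 5 were pseudogenes of ribosomal proteins: Rpl30-ps9, Rpl30-ps1, Rpl7-ps7, Rpl30-ps8 and Rps12-ps9, by 2.74, 2.43, 2.26, 2.13 and 1.94. Snord38a, a small nucleolar RNA, also fell, from 8.83 and 15.6 TPM to 0 and 1.5 TPM. These values cannot be assigned to 1 locus with certainty.

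Several of the largest differences lay in other genes, with at most 2.03% of windows shared for the first 4 described. Polr2a, the largest subunit of RNA polymerase II, fell from 26.6 and 19.4 TPM to 5.4 and 4.90 TPM, by 1.95 (SE 0.20, limma adjusted p = 0.00359). Arl5c, a small GTPase of the ARF-like family, fell from 270 and 266 TPM to 66.3 and 61.8 TPM, by 2.05 (SE 0.23, limma adjusted p = 0.00505). Rhox1, an X-linked homeobox gene of the reproductive cluster, rose from 2.13 and 3.26 TPM to 14.8 and 12.9 TPM, by 2.02 (SE 0.27, limma adjusted p = 0.00641). Far1os, an antisense transcript, rose from 1.71 and 1.71 TPM to 10.4 and 11.4 TPM, by 2.13 (SE 0.19, limma adjusted p = 0.00235). In each of these 4 genes the lower group lay far below the higher group, and Polr2a and Far1os kept their calls with any library left out. Rhox1 and Arl5c lost theirs without pESC-PGCLC replicate 2 (1.80 to 2.24 and -2.10 to -2.00). Whether the counting used strand is not given in the sources used here, so Far1os cannot be told apart from its sense partner. Gstm3, a glutathione transferase with 28.8% of its windows shared with other genes, rose from 91.6 and 114 TPM to 363 and 383 TPM, by 1.86. Rpap1, a polymerase II-associated protein (50.6 and 18.1 against 2.97 and 5.35 TPM), and Rep15, a partner of the GTPase Rab15 (7.45 and 14.3 against 2.97 and 1.41 TPM), fell by 2.64 and 1.88 with uneven PGC values. Ywhaq-ps3, a pseudogene with 91.3% of windows shared, and n-R5s196, a 5S ribosomal RNA gene, completed these lists, with differences of 2.46 and -1.95. n-R5s196 and Snord38a lost their calls whichever library was left out, and Rpap1 in each fit except that without PGC replicate 2 (-3.36 to -1.93).

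The 13 genes of the mitochondrial genome moved in both directions, 3 rising and 2 falling, against 3.5% and 4.48% of all genes. mt-Cytb, which encodes cytochrome b, was at 23960 and 43020 TPM against 56130 and 78800 TPM. mt-Co1, a subunit of cytochrome c oxidase, was at 5865 and 11890 TPM against 16430 and 18700 TPM. mt-Nd5, of complex I, rose from 880 and 1250 TPM to 2266 and 2795 TPM, by 1.26. The other complex I genes that changed fell, mt-Nd2 from 9502 and 8623 TPM to 4072 and 4529 TPM, and mt-Nd3 from 842 and 466 TPM to 160 and 147 TPM. Since these genes are read from 1 long transcript per strand, their opposite directions are given side by side without a reading. mt-Co1 and mt-Nd3 shared 51.1% and 98% of windows with nuclear copies or pseudogenes. Without PGC replicate 1 the list held 1 higher and 1 lower call. mt-Cytb, mt-Co1, mt-Nd5 and mt-Nd2 each lost their call in 3 of the 4 leave-one-out fits, with ranges of 0.63 to 1.47, 0.56 to 1.58, 1.0 to 1.51 and -1.15 to -1.0, and mt-Nd3 only without pESC-PGCLC replicate 2 (-2.45 to -1.60).

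Of 7 lists of markers of other cell types, 2 held called members. Gonadal somatic markers fell in 2 of 17 tested members and rose in 0, against 4.48% of all genes called lower, with a median of -0.61. All 23 with values were above 0 in each of the 4 libraries compared, while between 4 and 10 were at 0 in each stem cell library. Their summed level was 196 and 157 TPM in PGCs and 99.2 and 92.2 TPM in pESC-PGCLCs. Amhr2, the receptor for anti-Müllerian hormone, was at 21.7 and 19.2 TPM against 9.96 and 8.22 TPM, and Fst (follistatin), an inhibitor of activin, at 37.2 and 27.1 TPM against 14.9 and 14.0 TPM. Blood markers rose in 2 of 14 tested members and fell in 0, against 3.5% of all genes called higher. The other 12 were not called. The median of this list was 0.36, with 8 members above 0 and 6 below. Hba-x, the alpha-like globin of the embryo, was at 257 and 258 TPM in PGCs and 636 and 640 TPM in pESC-PGCLCs, a rise of 1.3 (SE 0.21, limma adjusted p = 0.00955). Fcer1g, a receptor subunit of myeloid cells, was at 1.08 and 2.28 TPM against 4.97 and 4.50 TPM. Of these 4 genes, Amhr2 and Fst lost their calls under median centring, and each was lost in at least 2 leave-one-out fits, those without a pESC-PGCLC library. limma called 0 members for endothelial (3 tested), endoderm (9), mesoderm and fibroblast (6), trophoblast (3) and neural (5) markers, and voom called 0, 1, 1, 0 and 0 lower. Medians of these lists lay between -0.49 and -0.33, beside -0.25 for all genes. Endoderm markers summed to 34.5 and 29.0 TPM in PGCs against 22.3 and 17.3 TPM in pESC-PGCLCs. Trophoblast markers overlapped, at 18.3 and 12.3 TPM against 10.3 and 14.3 TPM. Genes that report on library quality, such as replication-dependent histones and Malat1, gave 0 calls among 20 in both fits. The gonadal somatic and globin values moved with the 2 groups compared, and their part in the differences of the other lists was not tested.

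**Figure D5:**
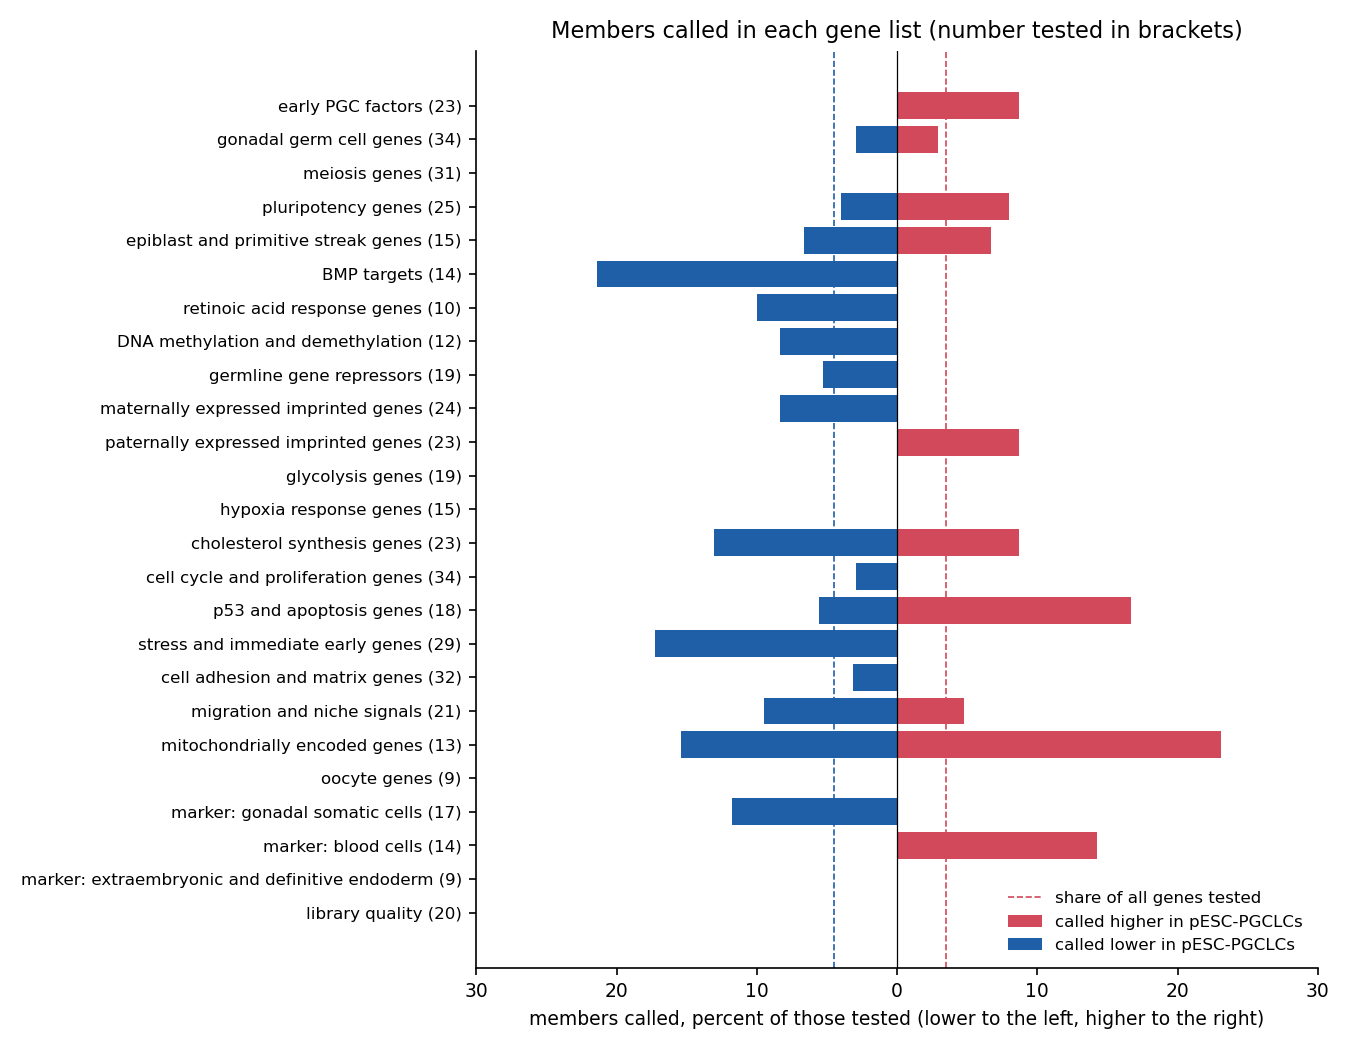
Share of tested members called in each gene list with at least 9 tested members (number in brackets), higher in pESC-PGCLCs to the right in red and lower to the left in blue, in percent. Dashed lines mark 3.5% and 4.48%, the shares of all genes tested. Meiosis, glycolysis and hypoxia lists have no bar, and stress and BMP target lists have bars to the left alone.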

How the data were processed

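RNA-seq was analysed for 2 PGC and 2 pESC-PGCLC libraries, with the 6 other libraries of the series in the fit. The deposited TPM values were made by the authors with HISAT2 alignment to mm10 and featureCounts, per their methods, while their processing notes also name Bowtie2, RSEM and DESeq2. Library preparation is described differently in the labels (NEBNext kit from total RNA) and in the methods (low-input amplification), so which applies is not known. TPM fixes each library's total, so a gene's value depends on all others. TPM steps and GENCODE exon lengths gave whole reads for about 95% of values (tolerance 0.02 reads). Here log2(TPM + 1) was fitted with limma 3.58.1 (R 4.3.3), 1 mean per group, after a filter of 1 TPM in at least 2 of the 4 libraries. Genes with an adjusted p below 0.05 and at least 2-fold change were called. On simulated data, 30% of 2-fold and 84% of 4-fold changes were recovered, with 0 calls when no gene changed. With 200 genes changed, 161 were called, 152 of them changed genes in the right direction. The simulation drew noise gene by gene, with no effect shared across a library. It therefore cannot speak to the dependence of the calls on single libraries or on scaling.

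The members and gene lists were chosen with earlier results of these data known. Named genes were each list's anchors, up to 4 called members of each list per direction, and the 12 largest rises and falls of genes with conventional symbols; of 188, 164 were tested. The stem cell set, the gene families and the voom fit were chosen after values were seen. Shared sequence is the percentage of a gene's 50-base windows found in other annotated genes. Of 36066 symbols 132 had no annotation match, and 24 had been turned into dates. Alternatives were another pseudocount, filters, groups, scalings, a replicate block, a fold minimum, the unadjusted p, and each replicate left out. Replicate numbers did not pair PGC with pESC-PGCLC libraries (correlation of deviations 0.04). Values of some single genes counted in the lists are not reported here.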

Additional observations from a re-analysis of the deposited data

How the results depend on the processing

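All 1244 called genes kept their direction under each alternative that held them (1236 in the voom fit on recovered reads, chosen after seeing the data, and 1244 in the others). Because the replicates of every called gene did not overlap, only the 2 scalings and voom could have changed a direction. The number of calls did not hold: the cause was not tested except where fewer libraries or another threshold make up the alternative. Fitting the 4 libraries alone gave 0 higher, 0 lower, and 0 of the 47 calls counted within gene lists. Testing without a filter gave 335 higher, 408 lower and 743 in all, against 546, 698 and 1244. A 4-fold minimum gave 42 higher, 58 lower, 100 in all and 2 within lists. Median centring gave 875 higher and 343 lower, and quantile normalization 437 lower. Voom gave 1243 lower, 1881 in all and 75 within lists, and 1147 of the 1244 were shared. Leaving out 1 library gave from 26 (without pESC-PGCLC replicate 2) to 791 (without PGC replicate 2) higher calls, from 28 to 1396 lower, from 54 to 2187 in all and from 1 to 87 within lists. With the replicate number as a block, 550 genes were higher and 698 lower, 1248 in all, and none of the 67 called named genes lost its call; the pairing check gave r = 0.04 for these groups, so the numbers are only names. Of 164 named genes tested, 10 lost a call with a pseudocount of 0.1, 5 with a filter of 0.1 TPM, 14 without a filter, 10 with quantile normalization and 13 with median centring, and 0 reversed while called. The depth limits genes below about 0.2 TPM, where 3 reads or fewer were expected.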

Other observations

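In the libraries labelled PGC and pESC-PGCLC, gene families formed by symbol after the values were seen were also counted. Of 36 proteasome subunit genes tested, which encode the complex that degrades ubiquitin-tagged proteins, 7 rose and 0 fell, against 3.5% of all genes called higher, with a median log2 difference of 0.66 beside -0.25 for all genes. Psmb2, a subunit of the catalytic ring, was at 678 and 1080 TPM in PGCs and 2381 and 2108 TPM in pESC-PGCLCs, a rise of 1.39 (SE 0.22, limma adjusted p = 0.00970). Psmd10, a chaperone of proteasome assembly counted with the subunits by its symbol, was at 59.8 and 114 TPM against 234 and 228 TPM. Only 1 member was called without PGC replicate 1, and 12 under median centring. Related families held fewer calls: 1 rise among 10 proteasome activators, inhibitor and assembly chaperones (median 0.18) and 2 among 29 ubiquitin-conjugating enzymes (median 0.07). Nuclear genes of the respiratory chain and ATP synthase gave 6 rises and 0 falls among 91 (median 0.28). Their median exon length was 1631 nt, and 7.07% of all genes of 1000 to 2000 nt were called higher (median 0.13), a share near theirs. Among these risers, Sdhd, a membrane anchor of complex II, was at 40.9 and 44.8 TPM against 143 and 134 TPM. Mitochondrial ribosomal proteins gave 9 rises and 2 falls among 78 (median 0.48), and Timm and Tomm genes of mitochondrial import 2 rises among 25. Without PGC replicate 1 these counts of rises were 3, 5 and 1.

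Ribosomal protein pseudogenes fell in 35 of 135 tested and rose in 1 (median -0.72), against 4.48% of all genes and 8.99% of genes under 500 nt called lower (median length of these pseudogenes 475 nt), while the 83 cytosolic ribosomal protein genes gave 1 rise and 2 falls (median -0.21). Reads can be split between such genes and their copies, and under median centring the falls numbered 16, and 10 without PGC replicate 1. Of 676 X-linked genes tested 30 rose and 33 fell, or 9.32% called beside 7.98% of all genes. Their median was -0.21 beside -0.25 for all genes. Xist, the RNA that coats the inactive X, was at 4.58 and 2.60 TPM in PGCs and 1.91 and 1.32 TPM in pESC-PGCLCs (limma adjusted p = 0.0418, under 2-fold). Tsix, its antisense partner, was at 9.60 and 5.14 TPM against 3.34 and 1.66 TPM, a difference of -1.25 (SE 0.30, limma adjusted p = 0.0259), and reads of the pair cannot be told apart without strand.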
